A study of Abies pinsapo with 24 samples.

Results

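The genes described here are the features of a Spanish fir (Abies pinsapo) count table whose best protein hit names an enzyme family of the cuticle, its waxes or suberin. A feature was a member when its best hit lay in a land plant and the protein name contained ketoacyl-CoA synthase, fatty acyl-CoA reductase, omega-hydroxy, glycerol-3-phosphate acyltransferase, GDSL esterase, cytochrome P450 86 (CYP86) or long chain acyl-CoA synthetase. The rule also asked for names with ECERIFERUM or cutin, which no land-plant hit carried. It found 182 members among 51046 features, carrying 51 different best-hit names, of which 169 members had theirs in Arabidopsis thaliana. The names are those best hits and not names established in fir.

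A waxy cuticle seals the epidermis of needles, and suberin seals the endodermis of roots and the bark of stems and roots. Both are built from very-long-chain and omega-oxidised fatty acids. Long chain acyl-CoA synthetases (LACS) activate fatty acids with coenzyme A, 3-ketoacyl-CoA synthases (KCS) catalyse the condensing step of chain elongation, and fatty acyl-CoA reductases (FAR) make primary alcohols. CYP86 enzymes hydroxylate the chain end, glycerol-3-phosphate acyltransferases (GPAT) of a land-plant branch make the glycerol esters from which cutin and suberin grow, and omega-hydroxypalmitate O-feruloyl transferase (HHT) adds ferulate to omega-hydroxy acids in Arabidopsis. GDSL esterases/lipases are a large family. A few polymerise or break down cutin and suberin, and most have other or unknown substrates.

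The RNA came from needles and from roots of adult trees aged 30 to 50 years, growing at Yunquera (1100 to 1200 m) or at Ronda (1700 to 1800 m). Both organs were harvested in autumn (September 2022) and spring (May 2023), with 3 libraries in each of the 8 groups. Individual numbers in the labels were read as trees, which makes 1 to 3 the Yunquera trees and 4 to 6 the Ronda trees. The labels' protocols give different RNA extraction methods for the organs, so organ and extraction cannot be told apart, and season coincides with the harvest year. Whether several trees were pooled in a library is not given in the sources used here.

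Markers of photosynthesis went against the label in 2 libraries, which were set aside. These markers (chlorophyll a-b binding proteins, photosystem subunits and the small Rubisco subunit, 72 features, of which 53 had a count) made up 2.61 to 6.17% of each of 11 needle libraries. Their share of the 11 root libraries was 0.0526 to 0.155%. The share was 0.0436% in the library labelled spring needles Ronda 3 and 3.46% in the library labelled spring roots Ronda 2. The root marker list (34 features, of which 19 had a count) did not separate the organs, with 0.0393 to 0.127% in needles and 0.0471 to 0.115% in roots. The 22 libraries used were 6 of autumn needles, 5 of spring needles, 6 of autumn roots and 5 of spring roots. Total counts ran from 13355301 to 27427263 per library. Levels are CPM, counts scaled to a common library total after trimmed-mean normalisation. A feature at 0 in a library may still have had up to 3 counts, or 0.109 to 0.225 CPM, a limit that covers counting error only. In whole organs, fewer cells of a type and less RNA per cell cannot be told apart.

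A count was found for 107 of the 182 members. The other 75 had no count in any library, and these were exactly the 75 members whose coordinates overlap another feature on the same reference sequence, 60 on the same strand and 15 on the other strand only. None of the 107 members without an overlap was at 0. Over all features, 98.2% of the 20124 overlapping features had no count, against 8.53% of the 30922 others. A value of 0 for those 75 members therefore gives no information on whether the gene was expressed. It left 8 of 22 KCS, 11 of 22 FAR, 14 of 27 CYP86, 5 of 5 HHT, 5 of 5 land-plant GPAT, 3 of 12 membrane-lipid GPAT, 4 of 9 LACS and 57 of 80 GDSL members with values. Of the 107 members, 91 passed the filter on low counts in the fit of both organs, 89 in the needle fit and 55 in the root fit, and 14 entered no test.

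All 107 counted members had a count in needles. Of these, 76 had counts in roots as well, 31 had none in any of the 11 root libraries, and no member was counted in roots alone. The same counts over all features were not made. Of the 21600 features tested across organs, 2840 passed the filter on low counts in needles only and 844 in roots only. Of the 91 tested members these were 35 and 3. The members' share of a library was 0.114 to 0.478% in needles and 0.0988 to 0.215% in roots. Per kilobase of gene model and averaged over the 11 libraries of an organ, Gene_31981, a LACS9-type feature, had the highest level among members in needles (133 ± 30.3 CPM per kilobase, SD) and in roots (133 ± 26.7). Its model is 615 bases long. In needles it was followed by Gene_4821, a GDSL esterase of the At2g04570 type, with 106 ± 180 CPM per kilobase, an SD larger than the mean.

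**Figure D1:**
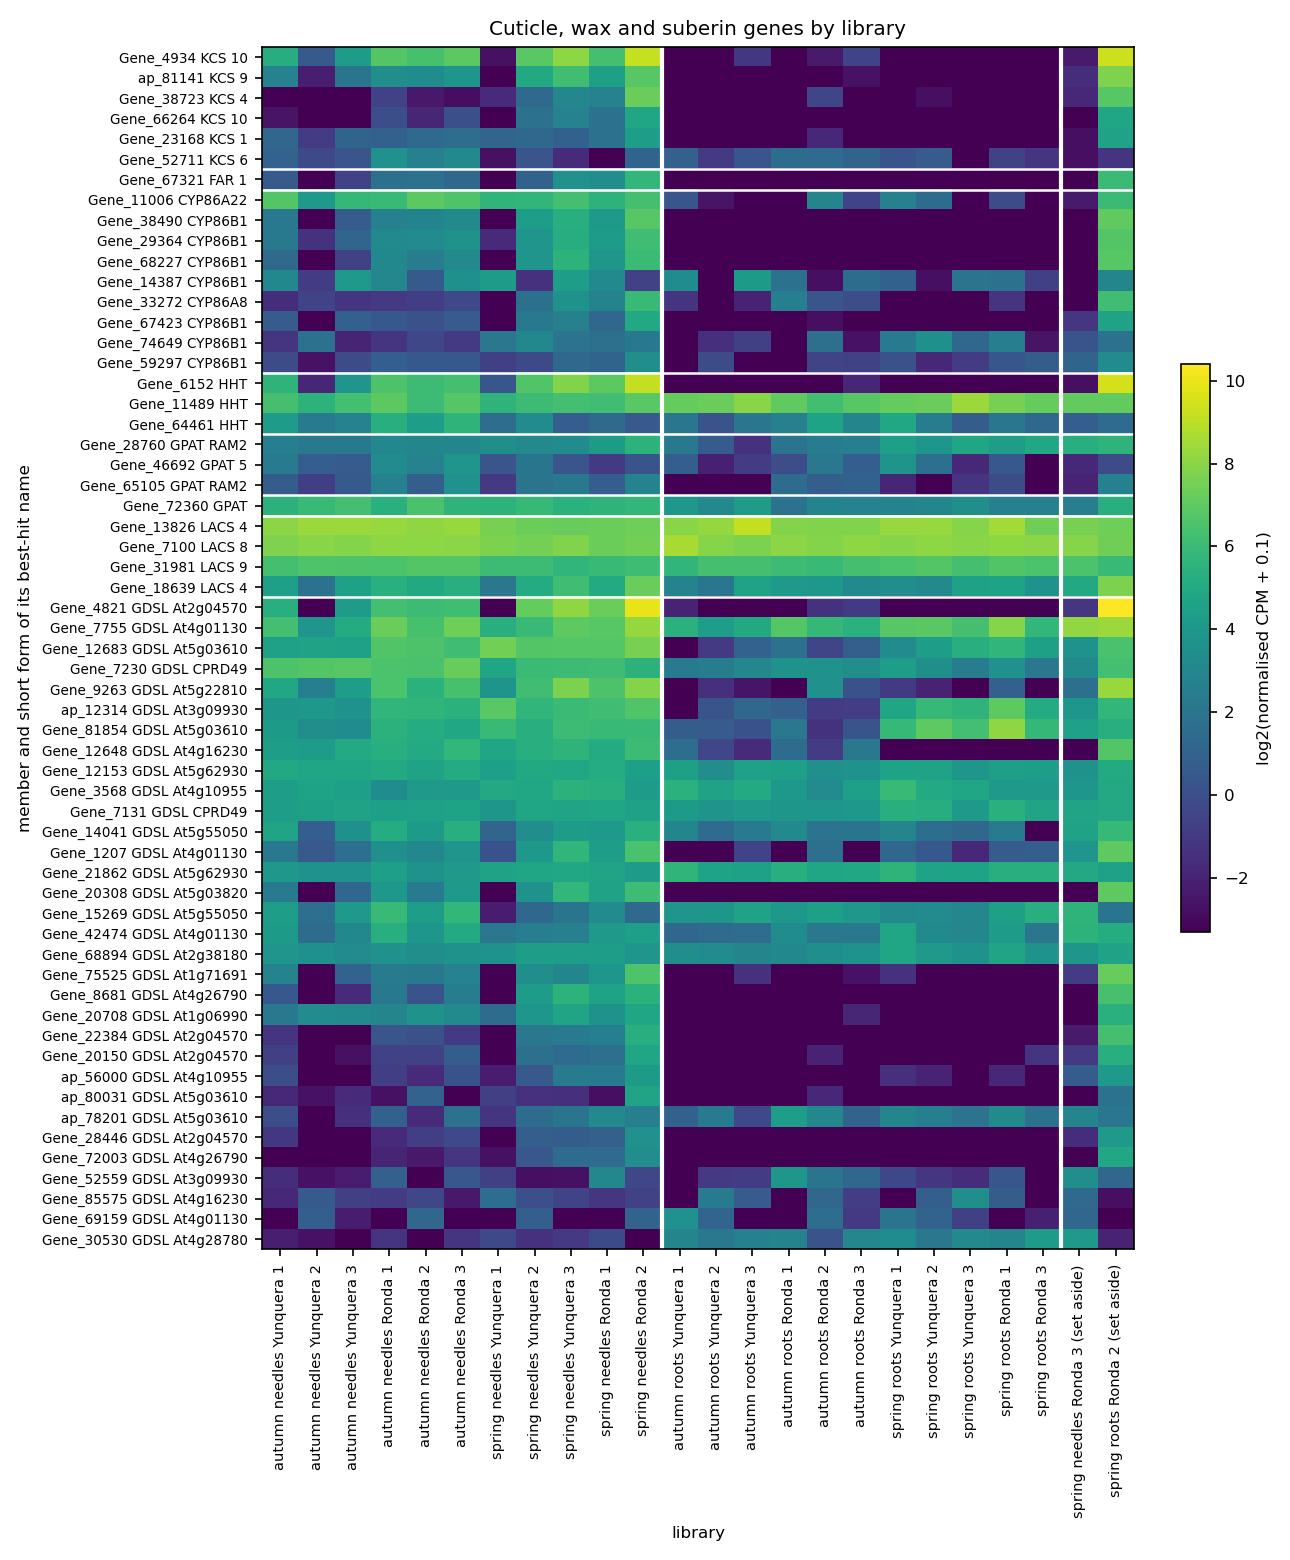
Level of the 59 members that reached 10 CPM in at least 1 of the 22 libraries, as log2 of normalised CPM plus 0.1 (colour), with members in rows ordered by role and libraries in columns (11 needle libraries, 11 root libraries, then the 2 set-aside libraries). Dark cells fill the root columns for most KCS, FAR and CYP86 members, and also the needle columns autumn Yunquera 2 and spring Yunquera 1 for many of them.

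Needles had higher levels than roots for 44 of the 91 tested members in autumn and lower levels for 4, by edgeR's quasi-likelihood test at an adjusted p of 0.05. Over all 21600 features tested, 18.8% were higher and 13.4% lower. In spring 46 members were higher and 7 lower, against 19.3% and 8.94% of all features. The median log2 fold change of the tested members was 2.50 in autumn and 2.75 in spring, beside 0.18 and 0.11 over all features. The filter on low counts bears on these counts. Of the 91 tested members, 35 passed it in the needle fit and not in the root fit, so that their direction was set by the filter, and they held 28 of the 44 and 35 of the 46 higher calls. Another 52 members passed it in the fit of each organ, 3 in roots only and 1 in neither. Among those 52 members, 16 were higher and 4 lower in needles in autumn, beside 17% and 15.9% of the 17694 features that passed in the same way, with median log2 fold changes of 0.82 and 0.03. In spring 11 of the 52 were higher and 6 lower, beside 16.7% and 10.5%, with medians of 0.35 and -0.03. The call "higher in needles" was made in both seasons for 37 members. All 35 members whose direction the filter set were higher in spring, so the 28 of them higher in autumn are among these 37. The same count over all features was not made. The 4 lower members became 2 without autumn needles Ronda 2 in autumn, and the 7 became 4 without spring roots Ronda 1 or spring needles Ronda 2 in spring. Without the needle libraries of tree 1, whose seasons deviated from their group means in opposite directions (correlation -0.292), the counts were 38 and 5 in autumn and 49 and 6 in spring.

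Among the elongation enzymes, 3 of the 7 tested KCS members were called higher in needles in autumn and 5 in spring, and none lower. Of all features, 18.8% and 19.3% were called higher. All of the KCS calls were of the 5 KCS members that passed the filter in needles and not in roots. Gene_4934 (ap_3858, bases 1 to 2409 of its reference sequence, plus strand) has KCS10 as its best hit, which is FIDDLEHEAD in Arabidopsis and is needed there to keep epidermal surfaces from fusing. Its level in autumn needles was lowest at 1.39 CPM, had a median of 60.6 and reached 123 CPM. The spring needle libraries held 0.0553, 118 and 269 CPM at Yunquera and 81.2 and 586 CPM at Ronda. Roots stayed between 0 and 0.577 CPM in autumn and at 0 in all 5 spring libraries. In autumn the organs did not overlap. In spring the value of 0.0553 CPM in needles Yunquera 1 lay under the limit that 3 counts set, so this library cannot be told apart from the roots at 0, and the other 4 needle libraries lay above all roots. The log2 fold change was 8.04 ± 1.52 (SE, edgeR adjusted p = 9.3e-04) in autumn. In spring the needle mean, which includes the library at 586 CPM, was at least 8071-fold higher than 3 counts over the 5 root libraries (edgeR adjusted p = 4.06e-04). Since the filter set the direction of this member, these calls are not read as a result.

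The KCS9-type feature on ap_81141 (bases 1 to 2273, plus strand) followed the same order of libraries at lower levels. In Arabidopsis KCS9 elongates acyl chains for waxes, suberin and membrane lipids. Its mean was 7.63 ± 5.14 CPM (SD, n = 6) in autumn needles and 48.6 ± 45.7 CPM (SD, n = 5) in spring needles, against 0.00961 CPM in autumn roots and 0 in spring roots. KCS1-type Gene_23168 had 1.85 to 20.7 CPM in spring needles and was at 0 in all spring roots. Over the 11 needle libraries its SD was larger than its mean (1.73 ± 2.54 CPM per kilobase). KCS6-type Gene_52711 had the highest mean level per kilobase of the KCS members in roots, at 1.27 ± 0.935 CPM per kilobase (SD, n = 11). It was not called between organs in either season (log2 0.94 ± 0.88 in autumn, edgeR adjusted p = 0.455). In Arabidopsis KCS6 (CUT1, CER6) is the main elongase of stem wax.

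The FAR members were counted at low levels and almost only in needles. All 9 tested members passed the filter in needles and not in roots, so the direction of their organ difference was set by the filter and their calls are not read as a result. Together the FAR members reached 7.5 ± 3.58 CPM in autumn needles and 27.4 ± 26 CPM in spring needles (SD, n = 6 and 5). The sum was 0 in every autumn root library and at most 0.326 CPM in spring roots. Gene_67321 has FAR1 as its best hit, which makes suberin-associated primary alcohols in Arabidopsis. It was at 0 in all 11 root libraries and between 0 and 3.45 CPM in autumn needles. Its spring needle values were 0, 1.85 and 12.1 CPM at Yunquera and 10.8 and 54.5 CPM at Ronda. FAR2-type Gene_82868 was the FAR member with the highest mean in roots, where it had counts in 1 of 11 libraries, at 0.326 CPM. FAR2 is the Arabidopsis MALE STERILITY 2 reductase of pollen wall synthesis. Gene_82868 had 2.34 ± 2.46 CPM in spring needles (SD, n = 5).

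Among the CYP86 enzymes, 5 of 10 tested members were higher in needles in autumn and 7 of 10 in spring, and none was lower. Of all features, 18.8% and 19.3% were higher. Of the members' calls, 4 in each season were of members that passed the filter in needles and not in roots. Among the 6 that passed in the fit of each organ, 1 was higher in autumn and 3 in spring. Of all features that passed in the same way, 17% and 16.7% were higher. Gene_11006, with best hit CYP86A22 of petunia, had the highest mean level of this role per kilobase in needles. It was between 16.8 and 123 CPM in autumn needles (median 80.2) and at 50.4, 53.3, 78.2, 47.3 and 81.3 CPM in the spring needle libraries. Roots stayed at 7.57 CPM or below in both seasons, so that the organs did not overlap. The log2 fold change was 5.99 ± 1.2 (SE, edgeR adjusted p = 9.21e-04) in autumn and 5.71 ± 1.36 (edgeR adjusted p = 0.00445) in spring. Unlike Gene_4934, it kept a level of 50.4 CPM in spring needles Yunquera 1.

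Several features have CYP86B1 as their best hit, an Arabidopsis omega-hydroxylase of very-long-chain fatty acids in root suberin. They differed in where they were counted. Gene_14387 and Gene_74649 held most of the CYP86 counts of roots. Gene_14387, the CYP86 member with the highest mean level per kilobase in roots, had 0 to 17.6 CPM in autumn roots and 1.85, 0.0504, 3.81, 3.55 and 0.516 CPM in spring roots, and 0.292 to 20.7 CPM in needles over both seasons. Gene_74649, an example outside the naming rule, had 0 to 3.21 CPM in autumn roots and 0.0645 to 11.6 CPM in spring roots, beside 0.167 to 8.42 CPM in needles. The organs overlapped for both, and neither was called between organs (log2 2.02 ± 1.42 and 0.06 ± 1.16 in spring, edgeR adjusted p = 0.314 and 1.0). Gene_29364, Gene_38490 and Gene_68227 were instead at 0 in all 11 root libraries. They passed the filter through needles alone, which set the direction of their organ difference. In spring needles Gene_38490 had 0, 20.7 and 39.4 CPM at Yunquera and 16.9 and 113 CPM at Ronda. Gene_29364 and Gene_68227 had 0.221 to 73.6 and 0 to 65.8 CPM in the same libraries. Needles were at least 1458-fold, 1116-fold and 1094-fold higher than 3 counts over the 5 spring root libraries for Gene_38490, Gene_29364 and Gene_68227. Related features of this kind can share reads, which makes the value of each one uncertain.

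The HHT-type features differed in where they were counted. Gene_6152 (ap_4633, bases 1 to 1723, minus strand) was counted almost only in needles. Its level was 0.182 to 93.7 CPM in autumn needles (median 58.1), and 1.16, 102, 223, 122 and 562 CPM in the spring needle libraries. In roots it had counts in 1 of 11 libraries, at 0.173 CPM. The log2 fold change in autumn was 10.99 ± 1.87 (SE, edgeR adjusted p = 6.69e-04). Gene_6152 passed the filter in needles and not in roots, so the filter set its direction and this call is not read as a result. Gene_11489 (ap_7977, bases 1 to 1480, minus strand) was high in both organs and higher in roots. It had 49.2, 67.2, 79.4, 72 and 117 CPM in spring needles and 143, 152, 319, 192 and 144 CPM in spring roots. The spring groups did not overlap, and needles were lower by a log2 fold change of -1.25 ± 0.30 (edgeR adjusted p = 0.00477). In autumn the groups overlapped and the change was -0.82 ± 0.27 (edgeR adjusted p = 0.0248).

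The land-plant GPAT members summed to 20.8 ± 12.3 CPM in autumn needles and 7.25 ± 4.58 CPM in autumn roots (SD, n = 6 each), and to 26.2 ± 18 and 29.4 ± 8.03 CPM in spring (SD, n = 5 each). The median log2 fold change of the 5 members was 1.75 in autumn and -0.13 in spring. Gene_65105, an example outside the naming rule, was the member called among the 5, higher in needles in both seasons, with 3.98 ± 4.63 against 1.04 ± 1.21 CPM in autumn (SD, n = 6 each). Its best hit is RAM2, which in Medicago makes lipid monomers that act in cutin and in mycorrhizal symbiosis. The chloroplast GPAT-type feature Gene_72360 belongs to membrane lipid synthesis and not to a surface polymer, and met the rule by its name. It had the lowest adjusted p of the members in autumn, with 60.8 ± 18.8 CPM in needles against 9.98 ± 5.65 CPM in roots (log2 2.66 ± 0.26, edgeR adjusted p = 5.19e-07).

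LACS members summed to 677 ± 47.7 CPM in autumn needles and 652 ± 128 CPM in autumn roots (SD, n = 6 each), and to 479 ± 57.1 and 646 ± 87.9 CPM in spring (SD, n = 5 each). Gene_13826, of the LACS4 type, had 302 ± 24.8 CPM in autumn needles and 300 ± 135 CPM in autumn roots (SD, n = 6 each). In spring 3 of the 4 tested LACS members were lower in needles than in roots, by log2 fold changes of -0.76 ± 0.22 for Gene_13826, -0.47 ± 0.17 for Gene_7100 (LACS8 type) and -0.57 ± 0.15 for Gene_31981 (SE, edgeR adjusted p = 0.0162, 0.0409 and 0.00736). All 4 passed the filter in the fit of each organ, and 10.5% of all features that did so were lower. The spring call for Gene_7100 was lost with the tree as a replicate block (edgeR adjusted p = 0.102). In autumn Gene_31981 had been higher in needles (log2 0.37 ± 0.13, edgeR adjusted p = 0.0382), the only LACS call of that season. The other LACS4-type member, Gene_18639, had 59.7 ± 57.3 CPM in spring needles and 16 ± 7.43 CPM in spring roots, was the one tested LACS member with a higher mean in spring needles, and was not called (log2 1.86 ± 0.70, edgeR adjusted p = 0.0578). Changes of the size called here are under the fold limit of the naming rule, and the features are named as examples of their role. LACS4 and LACS8 are endoplasmic reticulum enzymes and LACS9 lies in the plastid envelope in Arabidopsis.

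Of the 49 tested GDSL esterases/lipases, which are more than any other role among the 91 tested members, 22 were higher and 3 lower in autumn, and 19 higher and 3 lower in spring. Of these 49, 14 passed the filter through needles alone, which set their direction, and they held 11 of the higher calls in autumn and 14 in spring. Among the 32 that passed it in the fit of each organ, 11 were higher and 3 lower in autumn. Of all features that passed in the same way, 17% were higher and 15.9% lower. In spring 5 of the 32 were higher and 2 lower, beside 16.7% and 10.5% of those features. Gene_7755 (At4g01130 type) had the highest mean level per kilobase of the GDSL members in roots. It had 88.6 ± 60.7 CPM in autumn needles and 50.8 ± 30.8 CPM in autumn roots, and 130 ± 105 and 122 ± 71.2 CPM in spring, with overlap in both seasons and no call (edgeR adjusted p = 0.337 and 1.0). Gene_4821 (ap_3781, bases 1 to 1594, minus strand) had 0 to 79.5 CPM in autumn needles (median 54). Its spring needle libraries held 0, 145 and 279 CPM at Yunquera and 162 and 997 CPM at Ronda, and the spring roots 0. The organs overlapped only through the needle libraries at 0. CPRD49-type Gene_7230, with 106 ± 23.1 CPM in autumn needles and 9.24 ± 3.62 CPM in autumn roots, varied less (log2 3.54 ± 0.35, edgeR adjusted p = 6.07e-07). CPRD49 was described in cowpea as a drought-induced gene. Of the named members at lower levels, Gene_20708 (At1g06990 type), Gene_9263 (At5g22810 type) and Gene_20308 (At5g03820 type) were higher in needles in both seasons, with 16.6 ± 9.88, 124 ± 93.5 and 32.3 ± 28.9 CPM in spring needles and at most 0.475 CPM on average in spring roots. Gene_20708 and Gene_20308 had 3 and 0 counts over all root libraries. Both passed the filter through needles alone, which set their direction. At4g01130-type Gene_42474 and Gene_1207 were higher in needles in autumn, with 19.2 ± 14 and 7.23 ± 5.03 CPM. The call for Gene_1207 was lost without autumn roots Yunquera 1 or 2. In spring At1g71691-type Gene_75525 was higher in needles, with 26.8 ± 41.3 CPM against 0.0579 ± 0.130 CPM. With 13 counts over all root libraries, it too passed the filter through needles alone. Gene_30530, of the At4g28780 type, was higher in roots. It had at most 0.758 CPM in any needle library, 1.04 to 8.13 CPM in autumn roots and 10.2, 4.18, 8.87, 7.63 and 19.2 CPM in spring roots. Its log2 fold change was -5.65 ± 0.90 in autumn and -4.58 ± 0.94 in spring (SE, edgeR adjusted p = 1.11e-04 and 0.00139). In autumn roots At5g62930-type Gene_21862 was also higher, with 32.7 ± 10.8 CPM against 15.5 ± 3.42 CPM, as was the At5g03610-type feature on ap_78201, with 6.29 ± 7.15 against 1.13 ± 1.36 CPM. The call of the ap_78201 feature was lost with the tree as a replicate block (edgeR adjusted p = 0.063) and with each of 4 libraries left out: autumn roots Yunquera 2 and Ronda 1, and autumn needles Yunquera 3 and Ronda 2.

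**Figure D2:**
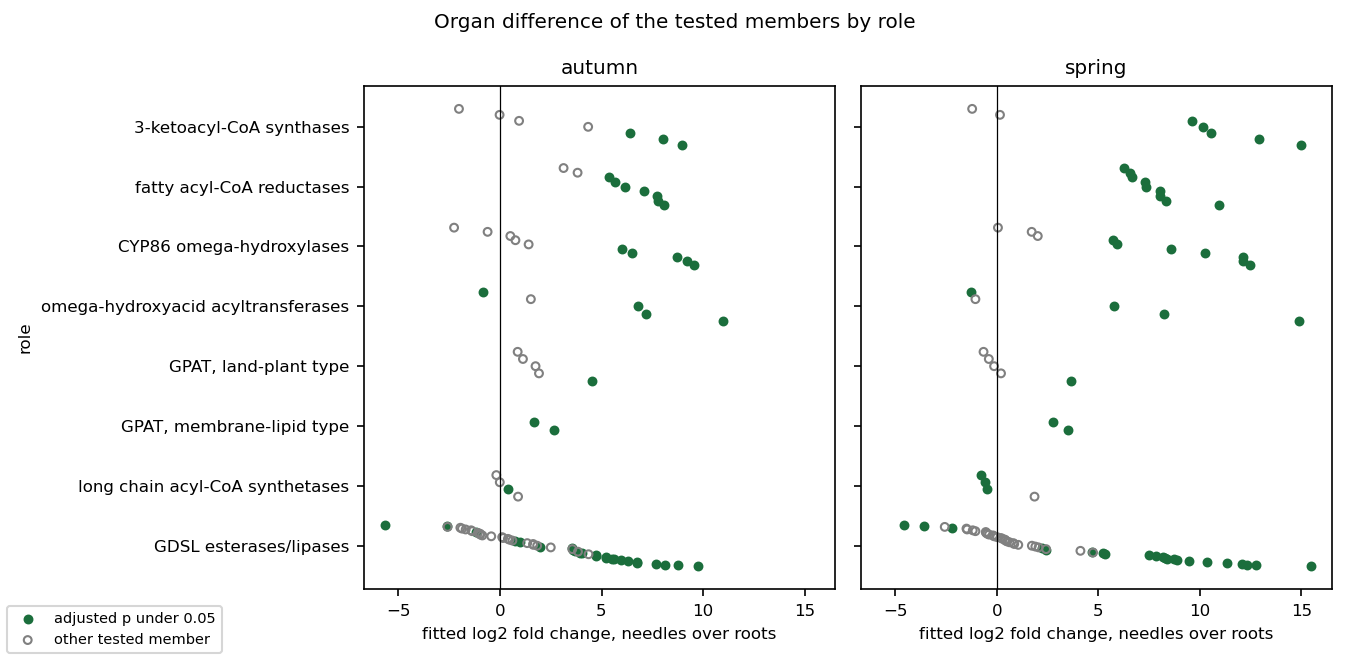
Fitted log2 fold change of needles over roots (horizontal axes) for each of the 91 tested members, by role (vertical axis), in autumn (left) and spring (right), with filled points at an adjusted p under 0.05. FAR members, which passed the filter through needles, all lie to the right of 0, LACS members lie within 2 units of 0, and GDSL members spread to both sides.

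Levels of needle-restricted members varied widely between needle libraries. A group of 36 members had more than 3 counts over all needle libraries and at most 3 over all root libraries: 15 GDSL, 9 FAR, 7 CYP86B1-type, 3 HHT and 2 KCS features. Their levels are given as a description, since these counts chose them. No member met the reverse criterion, and neither criterion was applied to all features. In the 11 root libraries the 36 summed to at most 0.404 CPM. In autumn needles they summed to 94.4, 13.4 and 46.9 CPM at Yunquera and 178, 138 and 175 CPM at Ronda. In spring needles the sums were 10.2, 264 and 608 CPM at Yunquera and 300 and 1278 CPM at Ronda. The lowest libraries were autumn Yunquera 2 and spring Yunquera 1, from different trees, and the other season's library of each of these trees held 264 and 94.4 CPM.

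Photosynthesis markers did not follow that order. They took 2.84% of the counts in autumn needles Yunquera 2 and 5.48% in spring needles Yunquera 1, inside the range of the other needle libraries, which was 2.61 to 6.17%. Neither library resembled roots in this respect. Of the set-aside libraries, the one labelled spring roots Ronda 2 held 1841 CPM of the 36 members and the one labelled spring needles Ronda 3 held 1.60 CPM.

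**Figure D3:**
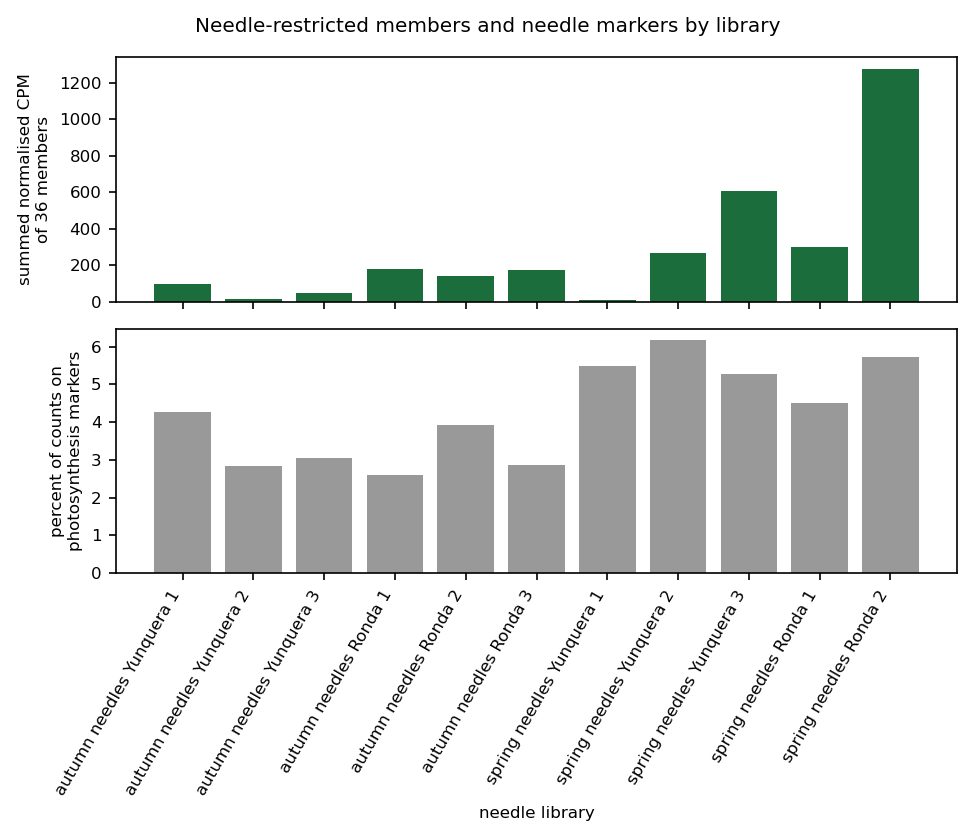
Summed normalised CPM of the 36 needle-restricted members (upper bars) and the percent of counts on photosynthesis markers (lower bars) in each of the 11 needle libraries. The sums run from 10.2 to 1278 CPM, while the marker share stays between 2.61 and 6.17%.

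The order of the needle libraries was compared between members. Gene_4934 was taken as the reference after its values were seen, and Spearman's rho with it was computed over the 11 needle libraries, which share trees and seasons. The median rho was 0.62 over 88 members with at least 10 counts in at least 2 needle libraries, and -0.05 over 20764 features. A rho of at least 0.9 was found for 8 members (9.09%) and for 98 features (0.472%). The members highest in this order were LACS4-type Gene_18639 (0.945), RAM2-type Gene_65105 (0.936), the KCS9-type feature on ap_81141 (0.927) and GDSL feature Gene_12648 (0.927). Gene_18639 shows the same libraries as low, with 3.33 CPM in autumn Yunquera 2 and 4.32 CPM in spring Yunquera 1, against 21.8 to 152 CPM in the other needle libraries. Its root values were 4.15 to 24.7 CPM.

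In needles 15 members were higher in spring than in autumn and 8 were lower, of 89 tested, by edgeR's quasi-likelihood test at an adjusted p of 0.05. Over all 20560 features tested, 8.79% were higher and 6.49% lower. The median log2 fold change of the tested members was 1.3, beside 0.03 over all features. The filter on low counts may bear on seasonal calls as well, and in neither organ were they split by it. The direction differed between trees. For each tree, the median difference of spring from autumn over the 89 members, on log2 of CPM plus 0.1, was 1.80 in tree 2, 1.62 in tree 3, 0.45 in tree 4 and 1.36 in tree 5, and -1.06 in tree 1. Over all 20765 features with the same minimum the medians were -0.02 to 0.04. Without the needles of tree 1 the counts became 36 higher and 6 lower, with 13 of the 15 and all of the 6 among the calls above. Leaving out spring needles Yunquera 1 alone gave 34 higher. The rises were 7 without autumn needles Yunquera 3, and 8 without each of autumn needles Ronda 1, 2 and 3 and spring needles Ronda 2. The falls were 2 and 3 without spring needles Ronda 1 and Ronda 2, 4 without autumn needles Ronda 3, and 5 without autumn needles Yunquera 1 or Ronda 1. DESeq2 called 27 rises and 10 falls. With the tree as a replicate block, 6 rises and 2 falls were called, all among the 15 and 8.

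The seasonal rises with the lowest adjusted p in needles belonged to GDSL members. Gene_12683 (ap_8701, bases 1 to 916, plus strand), best hit At5g03610, had 22.8 to 103 CPM in autumn needles and 181, 106, 112, 109 and 191 CPM in spring needles. Every spring library exceeded every autumn library, and the log2 change was 1.61 ± 0.19 (SE, edgeR adjusted p = 0.00108; higher in spring in 5 of 5 trees). Gene_81854, with the same best hit, rose from 24.8 ± 14.2 to 59.1 ± 11 CPM (log2 1.45 ± 0.22, edgeR adjusted p = 0.00315). The At3g09930-type feature on ap_12314 (bases 1320 to 2579, minus strand) rose from 32 ± 19.0 to 82.1 ± 27.5 CPM (log2 1.61 ± 0.21, edgeR adjusted p = 0.00157). All 3 features were higher in spring in 5 of 5 trees, tree 1 included. Their best-hit names give no substrate, and whether Gene_12683 and Gene_81854 share reads was not tested.

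RAM2-type Gene_28760 (ap_20053, bases 1 to 2545, minus strand) rose in needles as well. Its autumn range was 4.66 to 8.24 CPM, and its spring values were 11.3, 8.62, 9.77, 17.7 and 46.2 CPM (log2 1.48 ± 0.24, edgeR adjusted p = 0.00470). The groups did not overlap. The other named rises were of members that were low in autumn. Such members may have passed the filter on low counts through spring libraries alone, which would set their direction. This was not checked. KCS4-type Gene_38723 had at most 0.542 CPM in autumn needles and 0.221, 2.48, 8.07, 6.62 and 159 CPM in spring needles (log2 8.81 ± 1.62, edgeR adjusted p = 0.0124). With the tree as a replicate block the change was 7.95 and was not called (edgeR adjusted p = 0.115). CYP86A8-type Gene_33272, whose best hit is the Arabidopsis LACERATA omega-hydroxylase of cutin synthesis, had 0.249 to 0.713 CPM in autumn and 0, 3.21, 12.8, 6.87 and 61 CPM in spring (log2 4.88 ± 1.11, edgeR adjusted p = 0.0185). KCS10-type Gene_66264 and GDSL features Gene_22384 and Gene_8681 had the same form, with 0 in spring needles Yunquera 1. The replicate block ended the calls for Gene_33272, Gene_66264, Gene_22384 and Gene_8681 as well, at edgeR adjusted p values of 0.113, 0.114, 0.22 and 0.269. Calls for Gene_66264, Gene_33272, Gene_22384 and Gene_8681 were lost without spring needles Ronda 2, at edgeR adjusted p values of 0.0694, 0.0849, 0.112 and 0.116. They were lost without autumn needles Yunquera 3 as well, and for Gene_33272 without autumn needles Ronda 1. For Gene_22384 this held also without autumn needles Yunquera 2, Ronda 1, 2 or 3 or spring needles Yunquera 2, and for Gene_8681 without any of 10 libraries, all but spring needles Yunquera 1.

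Several members with high needle levels were not called for season with all libraries in use. They are given here for their level and not by the naming rule. Gene_4934 had a log2 change of 2.22 ± 1.19 (SE, edgeR adjusted p = 0.251), and 2.99 ± 0.81 (adjusted p = 0.0443) without the needles of tree 1. Gene_6152 had 2.23 ± 1.16 (edgeR adjusted p = 0.234) and, without that tree, 3.30 ± 0.91 (adjusted p = 0.0480). For CYP86B1-type Gene_68227 the values were 3.37 ± 1.23 (edgeR adjusted p = 0.0989) and 4.59 ± 0.80 (adjusted p = 0.00989). With the tree as a replicate block, Gene_4934, Gene_6152 and Gene_68227 were not called (edgeR adjusted p = 0.581, 0.496 and 0.386). Leaving out spring needles Yunquera 1 alone gave edgeR adjusted p values of 0.0567, 0.096 and 0.0188 for them. CYP86A22-type Gene_11006 gave -0.27 ± 0.42 with all libraries (edgeR adjusted p = 0.737) and 0.16 ± 0.39 without tree 1 (adjusted p = 0.842).

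Members that fell in spring needles included 3 of 4 LACS members, which is 3 of the 8 falls. Of all features, 6.49% fell. Gene_13826 had 264 to 329 CPM in autumn needles and 192, 159, 146, 161 and 167 CPM in spring needles. The groups did not overlap, and the level fell by 0.88 ± 0.10 on the log2 scale (edgeR adjusted p = 9.32e-04, lower in 5 of 5 trees). Gene_31981 fell by 0.58 ± 0.09 and Gene_7100 by 0.43 ± 0.09 (edgeR adjusted p = 0.00480 and 0.0158, each lower in 5 of 5 trees). These 3 are named as examples under the fold limit. GDSL feature Gene_7230, also under that limit, fell by 0.95 ± 0.27 (edgeR adjusted p = 0.0455). With the tree as a replicate block, Gene_13826 and Gene_31981 were the falls still called, and Gene_7100 and Gene_7230 had edgeR adjusted p values of 0.0897 and 0.081.

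An HHT-type and a GPAT5-type member also fell. Gene_64461, of the HHT type, had 4.84 to 48.5 CPM in autumn needles and 2.88, 9.74, 1.64, 2.58 and 1.32 CPM in spring needles (log2 -2.67 ± 0.59, edgeR adjusted p = 0.0165, lower in 4 of 5 trees). Gene_46692, with best hit GPAT5 of Arabidopsis suberin, had 1.44 to 14.4 CPM in autumn and 1.11, 3.89, 1.15, 0.404 and 1.08 CPM in spring (log2 -2.11 ± 0.55, edgeR adjusted p = 0.0311, lower in 4 of 5 trees). Tree 2 went the other way for both features, and both calls were lost with the tree as a replicate block (edgeR adjusted p = 0.069 and 0.132). The call for Gene_46692 was lost without the needles of tree 1 (log2 -1.55, edgeR adjusted p = 0.0659), and both calls were lost without spring needles Ronda 1 or Ronda 2. That for Gene_46692 was lost also without autumn needles Yunquera 1, Ronda 1 or Ronda 3 or spring needles Yunquera 3.

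**Figure D4:**
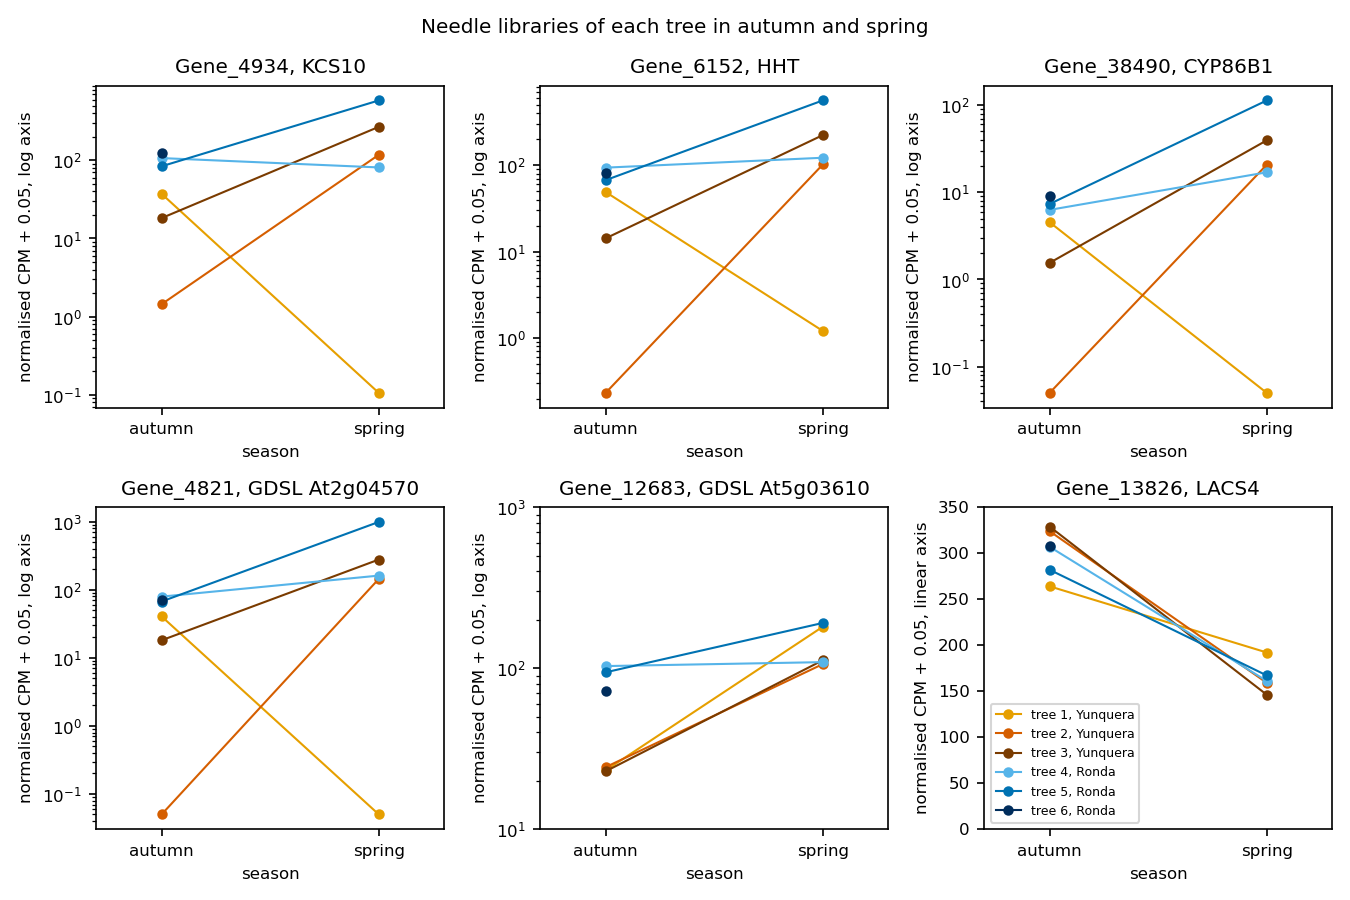
Normalised CPM plus 0.05 of 6 members in the needle libraries of each tree (colours) in autumn and spring, on log axes except for Gene_13826, with lines joining the libraries of a tree (tree 6 has no spring needle library in use). Tree 1 falls and tree 2 rises steeply for the first 4 members, while Gene_12683 rises and Gene_13826 falls in every tree.

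In roots 4 members were higher in spring and 1 was lower, of 55 tested, and DESeq2 called 8 and 4. Over all 18538 features tested in roots, 2.41% were higher and 3.13% lower. All 4 members that rose in roots also rose in needles. Gene_81854 (ap_88164, bases 1 to 2613, plus strand) had 0.297 to 4.36 CPM in autumn roots and 58.7, 129, 80.1, 277 and 55.5 CPM in spring roots. Its log2 change was 6.21 ± 0.72 (SE, edgeR adjusted p = 0.00308), and every spring library exceeded every autumn library. The ap_12314 feature rose from 1.01 ± 0.888 to 59.5 ± 40.9 CPM (log2 5.91 ± 0.88, edgeR adjusted p = 0.00818), and Gene_12683 from 1.34 ± 1.26 to 29.0 ± 17.0 CPM (log2 4.61 ± 0.88, edgeR adjusted p = 0.0179). Each of the 3 was higher in spring in 5 of 5 trees. The call for Gene_12683 was lost without autumn roots Ronda 3 or spring roots Ronda 1, at edgeR adjusted p values of 0.0584 and 0.0565.

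Gene_28760 rose in roots from 0.293 to 6.00 CPM in autumn to 21.8, 14.9, 27.9, 20 and 30.0 CPM in spring (log2 2.78 ± 0.57, edgeR adjusted p = 0.0234, higher in 5 of 5 trees). The root libraries of a tree deviated together, and with the tree as a replicate block this change was 3.07 with an edgeR adjusted p of 0.0610, so that 3 rises and 0 falls were called. Without the block the call was lost without autumn roots Ronda 1 or 3 or spring roots Yunquera 1, Ronda 1 or Ronda 3. GDSL feature Gene_12648, which is under the level limit of the naming rule in roots, was the member that fell. It had 0.220 to 4.44 CPM in autumn roots and 0 in all 5 spring libraries, at least 74.1-fold lower. With spring at 0, it passed the filter through autumn roots alone, which set its direction. Its call (edgeR adjusted p = 0.0303) was lost with the block. It was lost too without autumn roots Ronda 1 or 3 or spring roots Yunquera 1, Yunquera 2, Ronda 1 or Ronda 3. HHT-type Gene_11489, the highest member of its role in roots, had 146 ± 59.6 and 190 ± 74.6 CPM (log2 0.38 ± 0.28, edgeR adjusted p = 0.469).

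**Figure D5:**
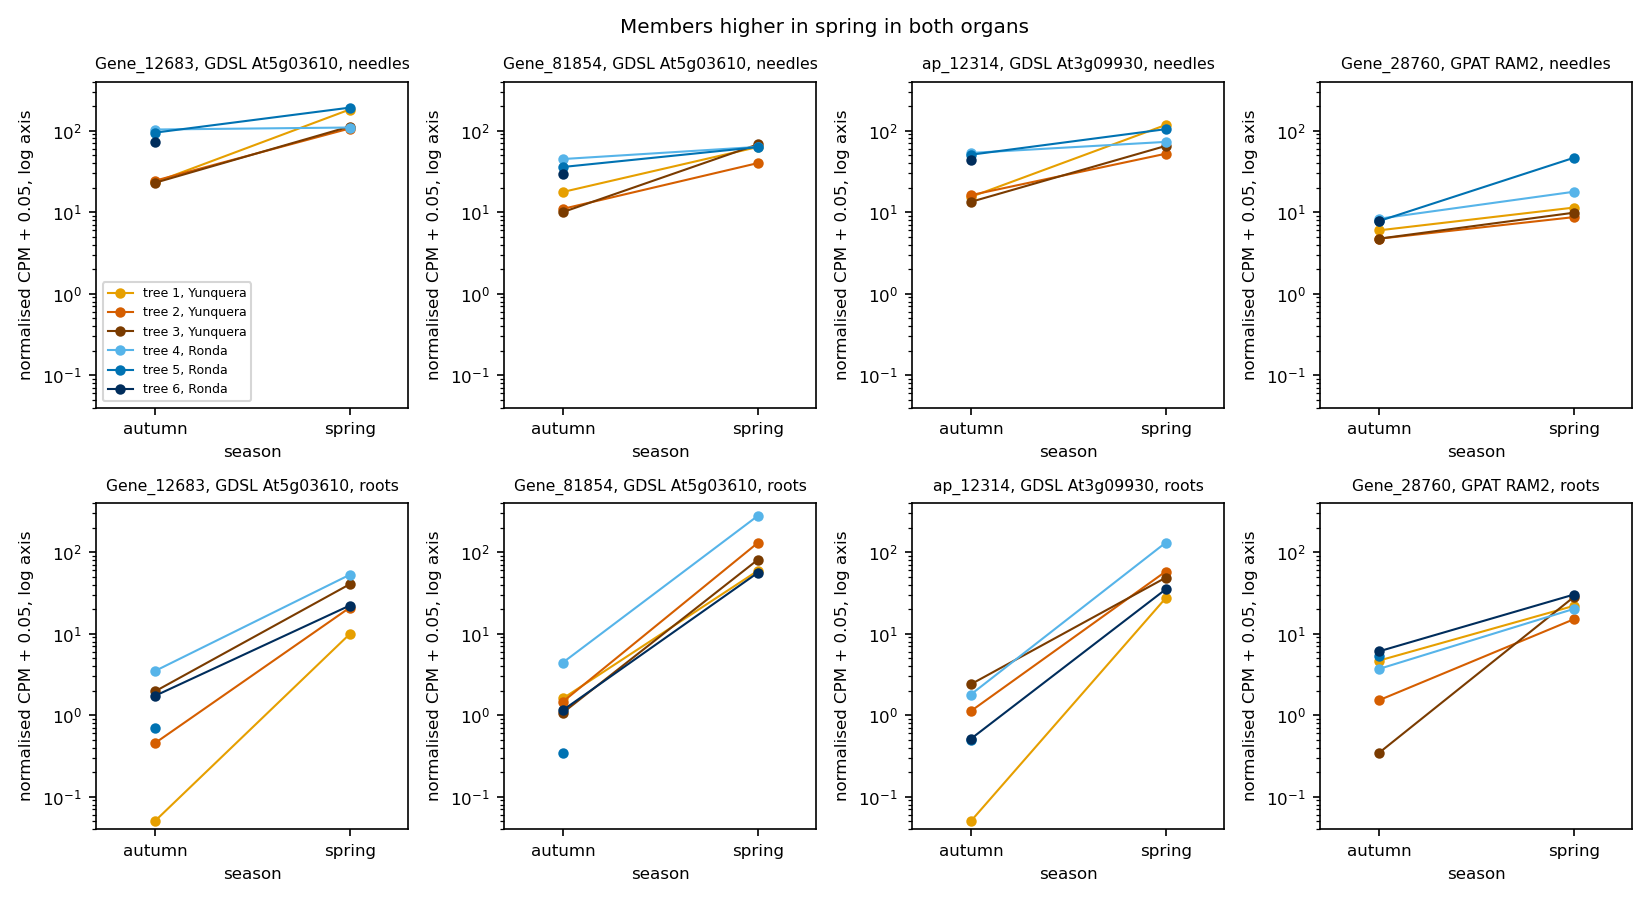
Normalised CPM plus 0.05, on log axes, of the 4 members higher in spring in both organs, in needles (upper row) and roots (lower row), with lines joining the libraries of a tree. Autumn root values lie at or under 6.00 CPM, and spring root values lie between 9.78 and 277 CPM.

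The seasonal change differed between organs for 5 members, more positive in needles for 2 and more negative for 3, of 91 tested by the interaction term in edgeR. Over all features 2.69% were more positive and 0.931% more negative. For the GDSL features the rise was larger in roots, with an interaction of -4.74 ± 0.72 for Gene_81854 and -4.27 ± 0.83 for the ap_12314 feature on the log2 scale (SE, edgeR adjusted p = 0.00162 and 0.00764). Gene_31981 fell in needles, while in roots it had 71.1 ± 12.5 CPM in autumn and 94.9 ± 9.47 CPM in spring (interaction -0.94 ± 0.20, edgeR adjusted p = 0.0124). Gene_12648 had 33.7 ± 13.3 and 43.7 ± 16.1 CPM in needles, and the fall in roots given above (edgeR adjusted p = 0.00209). Gene_33272 rose in needles and had 1.42 ± 2.31 CPM in autumn roots and 0.0663 ± 0.148 CPM in spring roots (edgeR adjusted p = 0.0145). Its call was lost with the replicate block (edgeR adjusted p = 0.0649), and without autumn roots Yunquera 1 or spring roots Ronda 3, at edgeR adjusted p values of 0.0594 and 0.0563. Positive interactions numbered 4 without spring roots Yunquera 1, and negative ones 5 without autumn roots Yunquera 1 or Yunquera 3.

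Between sites, 3 of 89 members were higher at Ronda in autumn needles and none was lower, where 1.1% and 0.608% of all features were. The called members were the GDSL features that rose in spring. Gene_12683 had 23.1, 24.2 and 22.8 CPM in the autumn needles of Yunquera and 103, 94.2 and 72.5 CPM in those of Ronda (log2 1.98 ± 0.27, SE, edgeR adjusted p = 0.0137). The ap_12314 feature had 15.3, 16.1 and 13.3 CPM against 53.1, 50.5 and 43.7 CPM (log2 1.75 ± 0.28, edgeR adjusted p = 0.0218). Gene_81854 had 17.6, 10.9 and 9.95 CPM against 44.7, 35.7 and 29.7 CPM (log2 1.55 ± 0.30, edgeR adjusted p = 0.0374). The sites did not overlap for any of the 3. No call was left without autumn needles Yunquera 3, and 1 without each of autumn needles Yunquera 2, Ronda 1 and Ronda 3. The call for Gene_81854 was lost also without spring needles Ronda 1 or Ronda 2 or autumn needles Ronda 2, and that for the ap_12314 feature without autumn needles Yunquera 1 or Ronda 2.

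In spring needles the site difference of these features was small, at 0.18 ± 0.28, 0.18 ± 0.31 and 0.14 ± 0.32 on the log2 scale for Gene_12683, the ap_12314 feature and Gene_81854. Whether the site difference changed with season was not tested. The median site difference over the 89 members in autumn needles was a log2 of 1.34, beside 0.01 over all features, and only 3 calls stood behind it. No member was called by edgeR for site in spring needles, autumn roots or spring roots, where 8, 6 and 3 members had an unadjusted p under 0.05. DESeq2 called 1, 2 and 1 members there, all higher at Ronda. Of all features, edgeR called 0%, 0.0324% and 0%.

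Other genes of the same pathways were followed in a list of 188 features outside the rule, of which 87 were tested across organs. In autumn 39 were higher in needles (44.8%, beside 18.8% of all features) and 7 lower, and in spring 38 (43.7%, beside 19.3%) and 2. The filter on low counts bears on these counts as well, since 85 list features passed it in the needle fit and 62 in the root fit. Features that passed it through needles alone had their direction set by the filter, and the calls of this list were not split by it. The features higher in autumn needles included 9 of 15 wax ester synthases, 10 of 18 omega-oxidation P450s outside CYP86 and 9 of 18 of plastid fatty acid synthesis. Of these roles, 15, 18 and 18 features passed the filter in the needle fit, and 7, 12 and 14 in the root fit. CYP77A4-type Gene_13381, whose best hit is an Arabidopsis in-chain oxidase of fatty acids, had 43.9 ± 23.5 CPM in autumn needles and 0.682 ± 0.614 CPM in autumn roots. ABCG11-type Gene_13652, whose Arabidopsis counterpart exports cuticle lipids, had 17.5 ± 13.6 and 0.145 ± 0.219 CPM. CASP-like features, relatives of the proteins that place the Casparian strip, went both ways, with 3 of 10 higher in needles and 3 lower. CASP-like Gene_5050 was among those lower in needles, with 78.1 ± 67.9 CPM against 258 ± 138 CPM in roots.

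By season, 8 of 85 tested list features rose in needles and 8 fell, which is 9.41% each, near the 8.79% and 6.49% of all features. In roots none of 62 rose and 3 fell (4.84%, beside 3.13% of all features). Plastid fatty acid synthesis held 5 of the 8 falls in needles. The thioesterase-type feature Gene_3868, which releases oleate from the plastid pathway in Arabidopsis, went from 535 ± 120 to 244 ± 67 CPM (log2 -1.19 ± 0.14, edgeR adjusted p = 0.00110). Ketoacyl synthase I-type Gene_10806 went from 202 ± 27 to 122 ± 12.3 CPM (log2 -0.73 ± 0.12, edgeR adjusted p = 0.00567). In roots Gene_4873, a very-long-chain enoyl-CoA reductase that completes each elongation cycle, fell from 111 ± 16.3 to 59.5 ± 7.39 CPM (log2 -0.95 ± 0.17, edgeR adjusted p = 0.0151). For site, Gene_5050 was the one list feature called, with 129 ± 59.3 CPM at Ronda and 26.8 ± 10.5 CPM at Yunquera in autumn needles (edgeR adjusted p = 0.0436).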

How the data were processed

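The authors deposited raw counts of reads for each feature in 24 libraries, per the file header and the labels. The submitters' processing notes name CASAVA, HISAT2 and featureCounts, with versions, settings and genome build not given in the sources used here. No genome or protein sequence was used here. Each library's column carries the name in 1 sample's description. Replicates of a group differed by more than sampling noise in all 24 pairs (chi-square per degree of freedom of at least 56.0), and p-values measure the spread between these libraries.

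Counts were tested with edgeR 4.0.16 (R 4.3.3): trimmed-mean normalisation, filterByExpr with minima of 10 per library and 15 in total, quasi-likelihood fits with 1 mean per group, and Benjamini-Hochberg adjustment over all features tested, at 0.05. Organ and season by organ were fitted over the 22 libraries, season and site within an organ, 9 comparisons in all. Log2 fold changes are needles minus roots, spring minus autumn and Ronda minus Yunquera, averaged over the other factors. SE is the fold change divided by the square root of the F statistic. The spread is estimated over all groups of a fit. The script was tested on simulated counts.

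Named members were called, changed by 1 or more on the log2 scale in either direction and averaged 5 CPM or more in the higher group, up to 25 per comparison by adjusted p. For season by organ and site the fold limit was dropped, with at most 10. The member with the highest mean CPM per kilobase in each role and organ was added. The members, lists, set-aside libraries and rules were chosen with earlier results of these data known.

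Whether numbers pair libraries was checked by correlating deviations from group means. In roots the seasons of each of 5 trees gave 0.168 to 0.365. Blocked results stand beside the seasonal and LACS calls described here that the block ended. Other organ calls that it ended are mostly not marked. In needles tree 1 gave -0.292 and the others 0.283 to 0.546. Between organs the values were 0.0924 to 0.259 in autumn and -0.0604 to 0.257 in spring. The alternatives were RLE size factors, no count filter, DESeq2 1.42.0, the tree as a replicate block (limma 3.58.1 with tree as a random effect for site), all 24 libraries as labelled, no needles of tree 1, and each library left out.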

Additional observations from a re-analysis of the deposited data

Results flagged for a closer look

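The seasonal change differed between organs by the interaction term in edgeR for 5 members, which the report gives with both organs' values. On the log2 scale, needles minus roots, the difference was -4.74 for Gene_81854, -4.27 for the ap_12314 feature, -0.94 for Gene_31981, 8.70 for Gene_12648 and 9.21 for Gene_33272. The last 2 involve root groups at or near 0, so the fitted size depends on the prior count.

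The set-aside library labelled spring roots Ronda 2 placed 0.650% of its counts on members, above the 0.0988 to 0.215% of the 11 root libraries and the 0.114 to 0.478% of the 11 needle libraries. It held 665 CPM of Gene_4934, 730 CPM of Gene_6152 and 1357 CPM of Gene_4821. The set-aside library labelled spring needles Ronda 3 held 0.1, 0.0501 and 0.351 CPM of these. Groups of 3 libraries were not searched for outlying libraries.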

How the results depend on the processing

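No count, and no member in a comparison where it met the limits of the naming rule, reversed its direction under any alternative run. Gene_11006, not called for season in needles, went from -0.27 to 0.16 on the log2 scale without the needles of tree 1. With all 24 libraries as labelled, the members called in spring between organs dropped from 46 higher and 7 lower to 5 and 1, spring rises in needles from 15 to 6, falls in roots from 1 to 0, the positive organ interactions from 2 to 0 and autumn needle site calls from 3 to 0. The replicate block (tree) gave 6 rises and 2 falls in needles, 0 falls in roots and 1 positive interaction. Between organs it gave 38 higher and 4 lower members in autumn, and 44 and 6 in spring. The report gives it beside the seasonal and LACS calls described here that it ended, and for the ap_78201 feature. Other organ calls it ended are not marked, such as Gene_68227 in autumn and Gene_1207 in spring (edgeR adjusted p = 0.0509 and 0.0761). The block rests on reading the labels' numbers as trees, and the needle libraries of tree 1 deviated in opposite directions. DESeq2 gave 27 rises in needles, 8 rises and 4 falls in roots, 5 positive and 7 negative interactions, 5 autumn needle site calls, and 1, 2 and 1 site calls in spring needles, autumn roots and spring roots. Without the needles of tree 1 there were 36 rises in needles. RLE size factors and no count filter moved no count by more than 1.5 times.

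Leaving out 1 library gave 36 to 46 higher and 2 to 5 lower members between organs in autumn (2 without autumn needles Ronda 2), and 39 to 49 higher and 4 to 8 lower in spring (4 without spring roots Ronda 1 or spring needles Ronda 2). In needles it gave 7 to 34 rises (7 without autumn needles Yunquera 3) and 2 to 8 falls (2 without spring needles Ronda 1). In roots it gave 2 to 5 rises (2 without autumn roots Ronda 3 or spring roots Ronda 1) and 0 to 1 falls. Positive interactions ran from 1 to 4, negative ones from 3 to 5, and autumn needle site calls from 0 to 4. The causes were not tested. Precision is limited by 5 or 6 libraries per organ and season and, for site, 2 or 3.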
